A study of Mus musculus with 12 samples.

Results

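Interleukin-15 and its receptor alpha chain, the death receptor Fas, the NKG2D ligand Ulbp1 and the PD-1 ligand Cd274 are 5 genes through which a tumor cell can be met by T cells and natural killer (NK) cells. Their RNA was followed in 562 cells, an immortalized mouse vascular tumor line, after knockout (KO) of Fip200, Atg5 or Atg7. The 5 rows were taken by gene symbol from tables of 14851 genes, and all 5 were listed. There were 4 groups of 3 libraries, 12 in all: control 562 cells and the cells with KO of Fip200, of Atg5 and of Atg7. The genes were chosen by earlier results of these same data, namely lower Il15 and Fas and higher Ulbp1 in all 3 KO cells. Their differences from control are therefore a description, carry no p-value, and support nothing by themselves.

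All groups, the controls included, descend from cells of a cutaneous tumor of a tamoxifen-treated Tsc1 f/f;Scl-Cre mouse and so share the loss of Tsc1, which Scl-Cre deletes in endothelial cells. The labels give the strain as C57BL/6, the tissue as lymphatic endothelial cells, the genotype of the controls as wildtype, and name the others by the gene knocked out. The knockouts were made in 1 established line with lentiviral Cas9, a guide RNA and puromycin selection. As control the methods of the study name a guide RNA against EGFP. The study describes its Fip200 KO cells as clones, and neither the labels nor its methods say which clone or culture gave each library. P-values below therefore measure the spread between these libraries, which may be partly technical. The libraries came from cultured tumor cells. Of the blood endothelial markers, Pecam1 lay between 264.6 and 538.6 RPKM and Cdh5 between 116.2 and 804.6 RPKM over the 12 libraries. Of the lymphatic markers, Lyve1 lay between 60.6 and 393.1 RPKM, while Prox1, the factor that sets lymphatic identity, was low, between 0.0366 and 5.79 RPKM. The T and NK cell list had 6 of its 11 genes in the tables with a sum of at most 3.96 RPKM in any library, of which Prf1 gave up to 3.44 RPKM in 1 Fip200 KO library, and Ptprc, the pan-leukocyte gene, did not pass 0.129 RPKM. Of 6 fibroblast and mural cell markers, 5 were in the tables, with a sum of 0.9997 to 61.6 RPKM in control, 1.18 to 15.7 with Fip200 KO, 4.54 to 5.68 with Atg5 KO and 1.54 to 13.5 RPKM with Atg7 KO. Control replicate 2 gave the highest sum through Dcn, a matrix proteoglycan (56.9 RPKM), and also the highest Pdgfrb (4.19 RPKM). Acta2 was highest elsewhere, at 15.2 RPKM in Fip200 KO replicate 3 and 13.2 RPKM in Atg7 KO replicate 1, against at most 2.91 RPKM in control. Col1a1 did not pass 0.476 RPKM and Rgs5 0.0108 RPKM in any library.

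RPKM divides reads by gene length and by the total of the library, so levels of different genes can be compared per length. Between 17266926 and 23629730 reads per library stood behind the tables. A gene was tested where its RPKM reached 0.5 in at least 3 of the compared libraries, and it was called if its adjusted p (Benjamini-Hochberg, limma) did not exceed 0.1 and its fold change, on log2 of RPKM plus 0.5, was 1 or more in either direction. That added 0.5 understates the change of genes with low values. The 3 comparisons with control share the same 3 control libraries, so they are given side by side and are not 3 separate tests of 1 pattern. The RNA of the targeted genes did not mark every KO group. Rb1cc1, which encodes FIP200, lay between 6.43 and 8.27 RPKM in control and 2.06 and 6.84 RPKM in Fip200 KO cells, Atg5 between 10.6 and 14.2 RPKM in control and 8.53 and 15.5 RPKM in Atg5 KO cells, and Atg7 between 18.4 and 25.0 RPKM in control and 2.64 and 8.34 RPKM in Atg7 KO cells. Only Atg7 was separated from control in its own KO cells, and it was also lower in Atg5 KO cells (9.94 to 11.9 RPKM, log2 difference -0.95, adjusted p = 0.0083 by limma). RNA does not show whether a protein was lost.

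IL-15 is a cytokine of the common gamma chain family that keeps NK cells and memory CD8 T cells alive. It is unusual in that the producing cell holds it on its own surface, bound to IL-15 receptor alpha, and presents it in trans to a neighbor that carries the beta and gamma chains. Fas binds Fas ligand on killer lymphocytes and starts apoptosis through FADD and caspase-8. Ulbp1, known in the mouse also as MULT-1, is a stress-induced surface protein seen by the activating receptor NKG2D of NK cells. Cd274 encodes PD-L1, which restrains T cells through PD-1.

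Il15 had the highest level of the 5 genes in control cells and lost most of it in every KO. Its RPKM (gene ID 16168) was 19.1, 24.3 and 26.1 in the control libraries, 2.95, 2.88 and 2.17 with Fip200 KO, 2.34, 2.13 and 2.24 with Atg5 KO, and 2.98, 10.8 and 4.27 with Atg7 KO. All 9 KO libraries lay below all 3 controls, and the nearest KO library was a factor of 1.77 under the lowest control. These levels rest on 570 to 904 reads per library in control and 69 to 309 reads in KO cells. On the log2 scale the difference from control was -2.90 ± 0.231 (SE, 3 against 3 libraries) for Fip200, -3.10 ± 0.151 for Atg5 and -2.04 ± 0.414 for Atg7. The ratio of mean RPKM, control over KO, was 8.69, 10.4 and 3.86 in that order. Among all tested genes Il15 stood at place 65 from the lowest fold change of 11803 with Fip200 KO, 46 of 11833 with Atg5 KO and 221 of 11784 with Atg7 KO.

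The Atg7 KO cells were the most uneven group for Il15, with the highest library at 3.61 times the lowest, against 1.36 times with Fip200 KO, 1.10 times with Atg5 KO and 1.37 times in control. Atg7 KO replicate 2, at 10.8 RPKM and 309 reads, is the high one. That library also had the lowest Fas and the highest Cd274 of its group, and the lowest Atg7 RNA of all 12 libraries (2.64 RPKM). Without it the Atg7 KO difference from control was -2.53. Without control replicate 2, the library with the highest Dcn and Pdgfrb, the differences were -2.86, -3.06 and -2.00 for Fip200, Atg5 and Atg7. In descending order of mean level, control (23.2 ± 3.63, SD, n = 3) was followed by Atg7 KO (6.01 ± 4.18), Fip200 KO (2.67 ± 0.429) and Atg5 KO (2.24 ± 0.104).

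The receptor alpha chain went the other way from its ligand. The RPKM of Il15ra (gene ID 16169) was 2.45, 1.60 and 1.04 in control, 11.9, 4.81 and 6.34 with Fip200 KO, 4.07, 3.09 and 6.96 with Atg5 KO, and 9.19, 3.66 and 5.17 with Atg7 KO. Every KO library lay above every control library, but by a small margin, a factor of 1.26 between the lowest KO and the highest control library. The difference from control was 1.86 ± 0.396 for Fip200, 1.23 ± 0.340 for Atg5 and 1.53 ± 0.372 for Atg7 on the log2 scale, with 45 to 102 reads per control library and 140 to 519 per KO library. The spread was wide in all groups, with the highest library at 2.25 to 2.51 times the lowest. The order of means was Fip200 KO (7.69 ± 3.74 RPKM), Atg7 KO (6.01 ± 2.86), Atg5 KO (4.71 ± 2.01) and control (1.69 ± 0.710), and the 3 KO groups overlapped one another.

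Opposite changes of ligand and receptor turned their ratio over. Per length, Il15 RNA was 7.82, 15.2 and 25.2 times Il15ra RNA in the control libraries. In the KO libraries the ratio was 0.248, 0.598 and 0.343 for Fip200 KO, 0.574, 0.689 and 0.321 for Atg5 KO, and 0.325, 2.94 and 0.826 for Atg7 KO cells. Ligand RNA thus exceeded receptor RNA in all 3 control libraries and in 1 of 9 KO libraries, again Atg7 KO replicate 2.

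**Figure D1:**
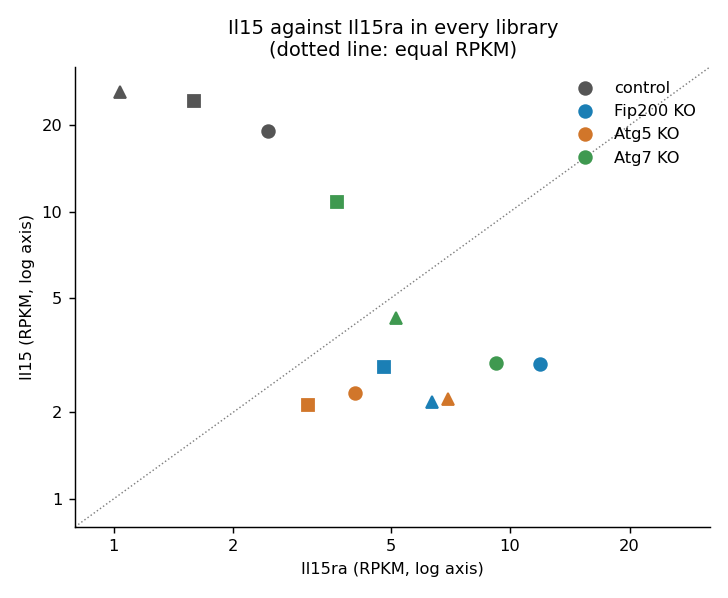
Il15 (vertical) against Il15ra (horizontal) in RPKM on log axes, 1 symbol per library, with shape for the replicate, color for the group and a dotted line of equal levels. The 3 control libraries stand at the upper left, 8 of 9 KO libraries stand under the line, and Atg7 KO replicate 2 stands above it with 10.8 RPKM of Il15.

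Fas fell to levels near the edge of what these libraries can measure. Its RPKM (gene ID 14102) was 1.43, 1.64 and 2.67 in control, 0.420, 0.386 and 0.506 with Fip200 KO, 0.403, 0.350 and 0.539 with Atg5 KO, and 0.418, 0.183 and 0.272 with Atg7 KO. No KO library reached a control library, and the gap between the nearest pair was a factor of 2.66. The read counts behind this were 49 to 95 per control library, 14 to 20 with Fip200 KO, 13 to 21 with Atg5 KO and 6 to 13 with Atg7 KO. On log2 of RPKM plus 0.5 the difference was -1.33 ± 0.282, -1.35 ± 0.234 and -1.59 ± 0.264 in Fip200, Atg5 and Atg7 KO cells. By limma voom on the recovered reads, which adds no RPKM, it was -2.06, -2.14 and -2.67, and the ratio of mean RPKM, control over KO, was 4.38, 4.45 and 6.59. Mean levels ran from control (1.92 ± 0.661) over Fip200 KO (0.437 ± 0.0618) and Atg5 KO (0.431 ± 0.0976) to Atg7 KO cells (0.291 ± 0.119), and those of the KO groups overlapped.

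Ulbp1 rose from an already clear level to become the most abundant of the 5 genes in KO cells. It (gene ID 77777) measured 8.96, 9.91 and 11.5 RPKM in control, 32.5, 43.8 and 59.8 with Fip200 KO, 35.2, 30.0 and 37.2 with Atg5 KO, and 40.4, 33.3 and 29.3 with Atg7 KO. Control and KO libraries did not overlap, and a factor of 2.54 lay between the nearest pair. It rests on 309 to 426 reads per control library and 1086 to 2388 per KO library, the most of the 5 genes in KO cells. The difference was 2.07 ± 0.261, 1.71 ± 0.140 and 1.71 ± 0.181 on the log2 scale in Fip200, Atg5 and Atg7 KO cells, or 4.48, 3.37 and 3.39 times the control mean. Fip200 KO cells had the highest mean (45.4 ± 13.7 RPKM) and also the widest spread, ahead of Atg7 KO (34.3 ± 5.66) and Atg5 KO cells (34.2 ± 3.68), which could not be ordered.

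Cd274 was low in every group and did not separate from control as the other 4 genes did. It (gene ID 60533) measured 1.46, 2.09 and 1.84 RPKM in control, 2.34, 1.49 and 2.05 with Fip200 KO, 1.38, 1.41 and 1.78 with Atg5 KO, and 2.31, 2.86 and 2.18 with Atg7 KO. Of the 9 KO libraries, 2 lay under and 4 over all controls, and the Atg7 KO libraries were all above control by a narrow margin. The log2 difference was 0.09 ± 0.263, -0.18 ± 0.181 and 0.36 ± 0.207, with 97 to 190 reads per library.

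**Figure D2:**
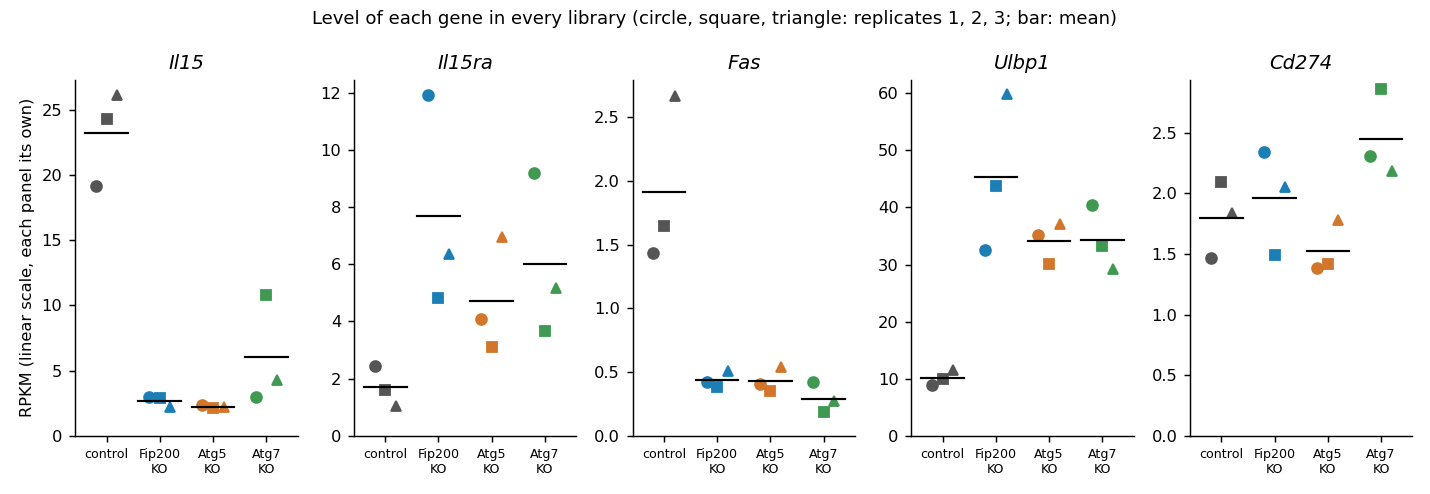
RPKM of each gene (linear axis from 0, its own scale in each panel) in every library, with symbols for replicates 1 to 3 and a bar for the mean of each group of 3. Il15 and Fas lie lower and Il15ra and Ulbp1 higher in all 9 KO libraries than in any control library, and Cd274 overlaps.

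Called against control by the rule above were 4 of the 5 genes in each KO, Il15 and Fas lower and Il15ra and Ulbp1 higher. Since these contrasts chose the genes, nothing is read from the count. Over all tested genes the share called lower was 1.64% with Fip200 KO, 6.94% with Atg5 KO and 6.81% with Atg7 KO, and the share called higher was 0.347%, 4.31% and 3.29%. Genes whose 3 KO libraries all lay below the 3 control libraries made up 12.4%, 22.0% and 20.4% of those tested, and genes that lay above made up 11.7%, 28.4% and 19.2%. The call of Il15ra and that of Fas in Fip200 KO cells were near the threshold, each being made in 3 of 15 alternative settings of the analysis. Il15 and Ulbp1 were called in 12 of 15 there. In Atg5 KO cells Il15, Fas and Ulbp1 were called in 15 of 15 and Il15ra in 12. In Atg7 KO cells Il15 was called in 13, Il15ra in 11 and Ulbp1 in 14 of 15, and Fas in 11 of 12. Nothing is read from these counts either.

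**Figure D3:**
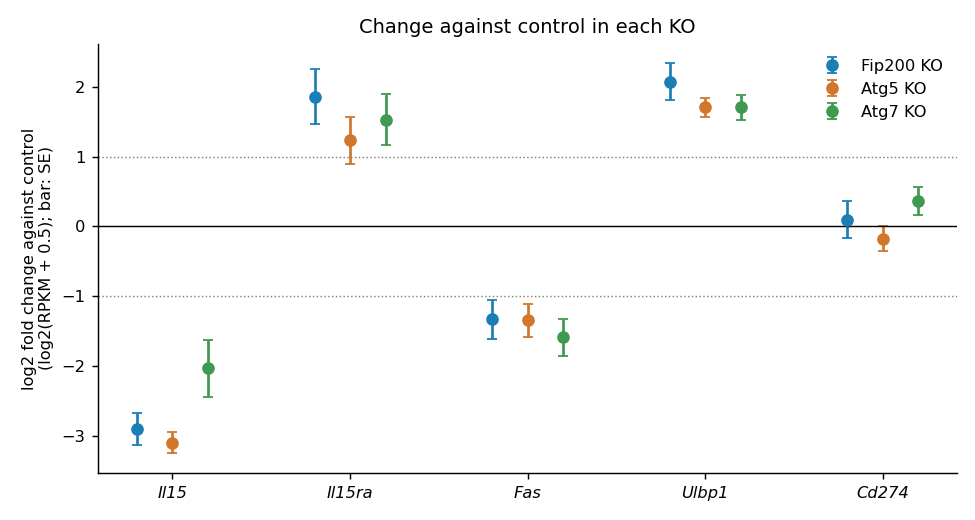
Log2 fold change against control of each gene in Fip200, Atg5 and Atg7 KO cells, on log2 of RPKM plus 0.5, with bars for the standard error and dotted lines at -1 and 1. Il15 runs from -3.10 to -2.04 and Fas from -1.59 to -1.33, Il15ra and Ulbp1 lie between 1.23 and 2.07, and Cd274 stays between -0.18 and 0.36.

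Library names carry the prefixes FY, JG and Yang, whose meaning is not given in the sources used here and which run partly with the groups. FY marks control replicate 1 and all Fip200 KO libraries, JG marks control replicates 2 and 3 and Atg5 KO replicates 1 and 2, and Yang marks Atg5 KO replicate 3 and all Atg7 KO libraries. Within FY, Fip200 KO minus control was -2.64 for Il15, 1.38 for Il15ra, -1.05 for Fas, 2.23 for Ulbp1 and 0.31 for Cd274, with a single control library. Within JG, Atg5 KO minus control was -3.23, 1.18, -1.57, 1.56 and -0.38 in the same order, with 2 libraries on each side. For the first 4 genes no KO library overlapped a control library. Their directions inside FY and inside JG were thus fixed beforehand, and nothing is read from them. No control library shares a prefix with Atg7 KO cells. In a fit of all 12 libraries with the prefix as a term, Atg7 KO minus control was -2.17 for Il15, 0.89 for Il15ra, -1.98 for Fas and 1.44 for Ulbp1, and none of the 4 was called there. Cd274 stood at -0.01 in that fit, against 0.36 without the term. In the same fit Fip200 KO cells kept the call of Ulbp1 and lost the other 3. Atg5 KO cells kept Il15, Fas and Ulbp1 and lost Il15ra. These contrasts chose the genes, and Fas reached 0.5 RPKM in only 1 Atg5 KO library, so nothing is read from the kept calls.

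Differences between the KO cells were not used to choose the genes and could be tested. Of 15 tests, 5 genes in 3 pairs of KO cells by limma over all 12 libraries, none was called. The pairs as a whole gave no call among 12233 genes either (0.0% in each pair), with 927 genes at an unadjusted p under 0.05 for Atg5 against Fip200 KO, 916 for Atg7 against Fip200 KO and 562 for Atg7 against Atg5 KO, and 0 called by limma voom on reads in each. The largest difference was that of Il15, which was higher in Atg7 KO than in Atg5 KO cells by 1.07 on the log2 scale (95% interval 0.30 to 1.83, adjusted p = 0.935 by limma, higher in 3 of 3 libraries). Against Fip200 KO cells it was higher in Atg7 KO cells by 0.86 (0.10 to 1.63, adjusted p = 0.646 by limma). Without Atg7 KO replicate 2 these differences were 0.58 and 0.37. Cd274 was higher in Atg7 KO than in Atg5 KO cells by 0.54 (0.08 to 1.00, adjusted p = 1.0 by limma), again in 3 of 3 libraries. Of all tested genes 5.38% had their Atg7 KO libraries all above the Atg5 KO libraries.

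For the other tests the intervals reached 0. The interval of Ulbp1 in Atg7 KO against Atg5 KO cells was centred on 0, from -0.48 to 0.48 on the log2 scale. Its difference from Fip200 KO cells was -0.37 for both Atg5 KO (-0.85 to 0.11) and Atg7 KO cells (-0.85 to 0.12). Fas passed the filter in this fit only through the control libraries, since 0.5 RPKM was reached in 1 library with Fip200 KO, 1 with Atg5 KO and 0 with Atg7 KO, and it was not tested in fits of the 6 KO libraries alone. Its differences, -0.01 for Atg5 against Fip200 KO cells and -0.25 and -0.24 for Atg7 KO cells against these, are therefore given as values and nothing is read from their tests. Il15ra was loosely bound, with an interval from -1.54 to 0.29 for Atg5 against Fip200 KO cells. These intervals leave room for differences of the sizes they span, so the KO cells are not shown to be alike. The tests depend on Fip200 KO replicate 3 for the number of genes called over the whole table, since without it 300 genes were called for Atg5 and 402 for Atg7 against Fip200 KO cells. None of the 15 tests of the 5 genes was called without it.

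The other genes of each pathway were read from 7 lists, whose members were also put together with earlier results of these data known. Besides the 5 genes, the lists gave 20 calls over the 3 KO cells. For 7 of these the group with the lower level reached 0.5 RPKM in fewer than 3 libraries, so that the gene passed the filter only through the group where it was high, and nothing is read from those calls (Tnfrsf9 and Ido1 with Atg5 and Atg7 KO, Tnfrsf21 with Fip200 and Atg5 KO, Il7 with Atg7 KO). All tested genes, as the background of these counts, were called lower in 1.64%, 6.94% and 6.81% and higher in 0.347%, 4.31% and 3.29% with KO of Fip200, Atg5 and Atg7. Of the 20 calls, 3 were made whichever library was left out, namely Jak3 and Tnfrsf21 with Atg5 KO and Dapk1 with Atg7 KO. Of these 3, Jak3 alone was also called in the fit with the prefix of the library names added. That fit ended 17 of the 20 calls, and left those of Jak3, Junb and Tnfrsf9 with Atg5 KO. The calls of Tnfrsf21 and Tnfrsf9 are among the 7 set aside above, so nothing is read from their staying called. In the IL-15 and common gamma chain system, 14 of 18 genes were in the tables and 11, 10 and 11 were tested in Fip200, Atg5 and Atg7 KO cells. Apart from Il15 and Il15ra, none of 9 was called in Fip200 KO cells, 2 of 8 were lower in Atg5 KO, and 1 of 9 was lower and 1 higher in Atg7 KO cells. Jak3, the kinase bound to the common gamma chain, fell with KO of Atg5 (-2.35 ± 0.268, adjusted p = 0.00419 by limma) and of Atg7 (-1.92, adjusted p = 0.0303 by limma), with -1.53 in Fip200 KO cells. Stat5b, a transcription factor downstream of the receptor, fell in Atg5 KO cells (-1.33, adjusted p = 0.0224 by limma) and lay, not called, at -1.65 with KO of Fip200 and -1.05 with KO of Atg7. Il7, a related cytokine, lay at 1.48, 0.93 and 2.14 in Fip200, Atg5 and Atg7 KO cells. The Atg7 KO call of Jak3 ended without control replicate 3, and that of Stat5b ended without Atg5 KO replicate 3.

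The receiving chains were present to very different degrees. Il2rb, the beta chain that an IL-15 target cell needs, did not pass 0.374 RPKM in any library, and Il2ra did not pass 0.392 RPKM, so neither was tested. Il2rg, the common gamma chain, was uneven, at 7.89 to 32.8 RPKM in control and 0.115 to 4.37 with Fip200 KO. It lay at 0.994 to 13.5 RPKM with Atg5 KO and 0.341 to 20.8 with Atg7 KO. It was not called in any KO, with log2 differences of -3.00, -1.23 and -1.28 in Fip200, Atg5 and Atg7 KO cells. The 3 Fip200 KO libraries lay below control for this gene, and the other 2 KO groups overlapped with it. The median over the list without its 2 chosen genes was -0.68, -0.72 and -0.54, against medians over all tested genes of 0.02, 0.06 and -0.01.

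Among death receptors, their ligands and the Fas signalling complex, 15 of 19 genes were tested. Besides Fas, 2 of 14 were called lower with Fip200 KO, 2 with Atg5 KO and 1 with Atg7 KO, and none was called higher. These counts include Tnfrsf21 with Fip200 and Atg5 KO, and the 1 of 14 with Atg7 KO is near the share over all genes. Dapk1, a death-associated kinase, fell in all 3 (-1.68, -1.02 and -1.69, adjusted p = 0.0629, 0.0129 and 0.0228 by limma). With the library-name prefix in the fit none of these 3 calls was made. That in Fip200 KO cells also ended without any one control library and without Fip200 KO replicate 1 or 2, and that in Atg5 KO cells without control replicate 3 or Atg5 KO replicate 3. Tnfrsf21, which encodes death receptor 6, lay at -2.13, -1.70 and -1.64. The parts that act directly under Fas were not called in any KO: Casp8 lay at -0.17, -0.24 and -0.26, Cflar, which blocks caspase-8, at 0.12, -0.35 and 0.07, and Fadd at 0.30, 0.89 and 0.84. Fadd missed only the fold threshold in Atg5 KO (adjusted p = 0.0289 by limma) and Atg7 KO cells (adjusted p = 0.0629 by limma), where its KO libraries all lay above control. The receptors Tnfrsf1a and Tnfrsf10b were also not called and stood far above Fas in level, at 90.2 to 115.1 and 42.0 to 74.3 RPKM in control. Medians without Fas were -0.15, -0.07 and -0.16.

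Of the NKG2D ligands, 6 of 9 were tested and Ulbp1 alone was called in each KO. The other 5 had medians of 0.39, -0.07 and 0.02. H60b, the ligand with the highest level in control at 11.7 to 13.6 RPKM, lay at 0.59, -0.12 and -0.13, Raet1e at 0.29, 0.10 and 0.09, Raet1d at -0.03, -0.07 and -0.33, Raet1a at 0.66, 0.19 and 0.02, and H60c at 0.39, -0.13 and 0.10. Raet1 genes, and H60 genes, are close copies within each family, so their reads could be split or lost in counting and their values are uncertain. Ulbp1 stood below H60b in all 3 control libraries, and in KO cells it was the highest of the 6, at 29.3 to 59.8 RPKM.

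Among other ligands of NK cell receptors, 6 of 11 genes were tested, and H2-T23, which encodes the Qa-1 molecule seen by the inhibitory receptor NKG2A, fell in Atg5 KO cells (-1.004, adjusted p = 0.0364 by limma). It was at -0.72 and -0.12 in Fip200 and Atg7 KO cells, and its call ended without control replicate 1 or Atg5 KO replicate 1. Pvr, a ligand of DNAM-1 and TIGIT, had an adjusted p of 0.0139 by limma with KO of Atg5 and 0.0254 with KO of Atg7, and stayed under the fold threshold (-0.63 and -0.82). The medians of the list were -0.09, 0.46 and 0.03.

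Of the checkpoint ligands, to which Cd274 belongs, 10 of 17 were tested and those called were all lower. Cd200, a ligand that restrains myeloid cells, fell in Fip200 KO cells (-1.97, adjusted p = 0.0969 by limma) and lay at -0.03 with KO of Atg5 and -1.08 with KO of Atg7, both overlapping with control. Its call ended without any one control library and without Fip200 KO replicate 1. Ido1, the tryptophan-degrading enzyme, lay at -0.94, -1.12 and -1.06. Cd276 (B7-H3) and Cd24a fell in Atg7 KO cells (-1.34 and -1.57, adjusted p = 0.0823 and 0.0743 by limma), the latter with libraries that overlapped with control. The call of Cd276 was made in 1 of 6 fits that left out a library (without Atg7 KO replicate 2) and that of Cd24a in 2 of 6 (without control replicate 2 or Atg7 KO replicate 3). Cmtm6 and Cmtm4, which hold PD-L1 protein at the surface, were not called, Cmtm6 at 0.27, 0.48 and 0.36 and Cmtm4 at -0.05, -0.63 and -0.34. Medians without Cd274 were -0.52, -0.03 and -0.34.

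Costimulatory members of the TNF family had 4 of 11 genes tested. Tnfrsf9 (4-1BB) lay at -1.43, -1.41 and -1.76, with at most 0.372 RPKM in any KO library and 0.980 to 2.13 RPKM in control. It was not tested in these cells without any one control library or with a filter at RPKM 1. The medians of the list were -1.01, -0.75 and -0.75. Of 20 transcription factors known to act on these genes, all were tested and 3 passed the test, all lower and in Atg5 KO cells: Ddit3 (-1.59, adjusted p = 0.0995 by limma), Hif1a (-1.10, adjusted p = 0.00995 by limma) and Junb (-1.60, adjusted p = 0.0547 by limma), whose libraries overlapped with control. In Fip200 and Atg7 KO cells they were not called but lay at -0.57 and -1.63 for Ddit3, -0.52 and -1.0001 for Hif1a, and -1.66 and -1.46 for Junb, and these values are not shown to differ from those in Atg5 KO cells. The call of Ddit3 ended without control replicate 2 or any one Atg5 KO library, that of Junb without control replicate 2 or 3 or Atg5 KO replicate 1 or 3, and that of Hif1a without Atg5 KO replicate 1. Irf1, which drives Il15, Il15ra and Cd274 after interferon, was not called (-0.29, 0.09 and 0.31). Trp53, which acts on Fas, was not called either (0.49, 0.41 and 0.15). The medians of this list were -0.36, -0.17 and -0.11.

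**Figure D4:**
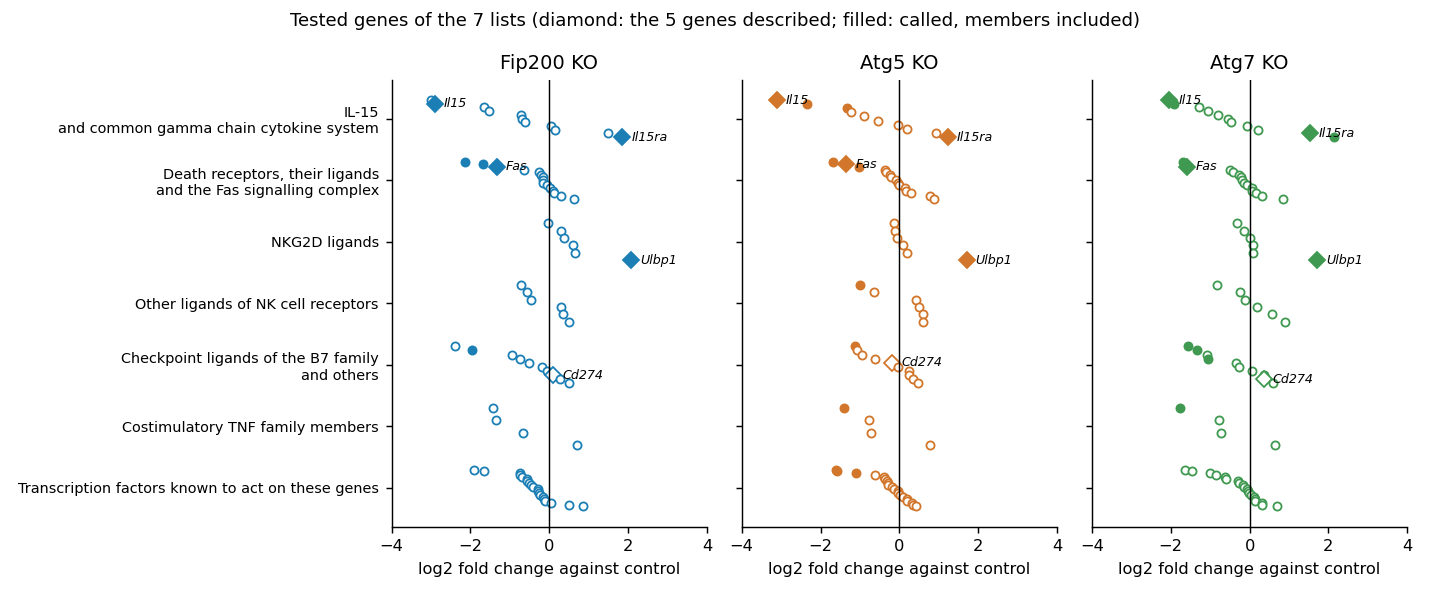
Log2 fold change against control of each tested gene of the 7 lists, 1 panel per KO, with filled symbols for called genes, open symbols for the rest and diamonds for the 5 genes described. Ulbp1 is the only filled symbol among NKG2D ligands in all 3 panels, and Il15 lies at the low end of its list in Atg5 and Atg7 KO cells.

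Macrophages are a known source of Il15, and their markers were read beside it. Of 5 markers, 4 were in the tables, and their summed level was 52.8 to 111.1 RPKM in control, 19.3 to 265.1 with Fip200 KO, 15.0 to 16.6 with Atg5 KO and 13.9 to 27.3 RPKM with Atg7 KO. Nearly all of it was Cd68, a lysosomal protein that other cells also make, and Lyz2. The defining receptors were close to 0 in all 12 libraries, Csf1r at no more than 0.179 RPKM and Adgre1 at no more than 0.118 RPKM with 9 libraries at 0. Fip200 KO replicate 1 had the highest sum, 265.1 RPKM, and an Il15 of 2.95 RPKM. What part these markers have in the Il15 result was not tested. In these bulk samples fewer cells that make a transcript and less of it per cell cannot be told apart.

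Il15 lies on chromosome 8 of the mouse, and the genes around it were lower as well. Gene order was taken from RefSeq (GRCm38.p6), and the neighbors were looked at after the values were seen. Of the 5 tested genes on each side, all 10 had a fold change below 0 in each KO, with medians of -0.79 for Fip200, -1.09 for Atg5 and -1.12 for Atg7, and 2, 6 and 5 of them were called lower, against 1.64%, 6.94% and 6.81% of all tested genes. Gab1, an adaptor of receptor tyrosine kinases that lies 3 places before Il15, was at -2.81, -2.44 and -2.55, next to the -2.90, -3.10 and -2.04 of Il15. It is among those counted as called in each KO, but reached 0.5 RPKM in only 2, 2 and 1 libraries of the 3 KO cells, so nothing is read from its calls. Anapc10, a subunit of the anaphase-promoting complex at 5 places before, was at -1.46, -1.18 and -1.30 and called in each KO. Il15 was below the median of its neighbors by 2.11 for Fip200, 2.01 for Atg5 and 0.92 for Atg7.

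Over 25 tested genes on each side of Il15, 47, 46 and 45 of 50 were below 0, with medians of -0.76, -0.76 and -0.93. Chromosome 8 as a whole had the lowest median of 20 chromosomes in each comparison, -0.37 for Fip200 (647 genes), -0.37 for Atg5 (650 genes) and -0.38 for Atg7 (649 genes), with 67.9%, 68.2% and 66.3% of its genes below 0. Whether the lower Il15 is part of that shift or stands apart from it was not tested.

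The neighbors of the other genes were read in the same way. The 10 neighbors of Il15ra on chromosome 2 had medians of 0.00, 0.11 and 0.02. Those of Fas on chromosome 19 had medians of -0.06, -0.38 and 0.44, among them the muscle actin gene Acta2 next to Fas, which was at 1.23, 1.50 and 1.85. Ulbp1 on chromosome 10 had neighbors with medians of 0.45, 0.26 and 0.56, of which 1, 5 and 6 of 10 had their KO libraries all above control, against 11.7%, 28.4% and 19.2% of all tested genes. Over the 39 tested genes within 25 places of it, 6, 13 and 9 were below 0, with medians of 0.39, 0.16 and 0.31. Chromosome 10 as a whole had the highest median of the 20 chromosomes with Fip200 KO (0.37, 22.8% of 566 genes below 0), and medians of 0.11 with Atg5 KO and 0.13 with Atg7 KO. Whether the higher Ulbp1 is part of that shift was not tested either. Of the 10, 2, 3 and 3 were below 0, among them Vip, which encodes a neuropeptide and lies 5 places before Ulbp1, at -3.13, -3.12 and -3.17. Vip had 5.51 to 7.59 RPKM in control and at most 0.478 RPKM in KO libraries, so it too passed the filter through the controls alone and nothing is read from its test. The neighbors of Cd274 on chromosome 19 had medians of 0.10, 0.07 and 0.14. Cd274 overlaps Plgrkt in RefSeq, and since the use of strand in counting is not stated, reads of overlapping genes may not have been told apart. Ulbp1 overlaps the pseudogene Gm46209, and the other 3 genes overlap none.

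**Figure D5:**
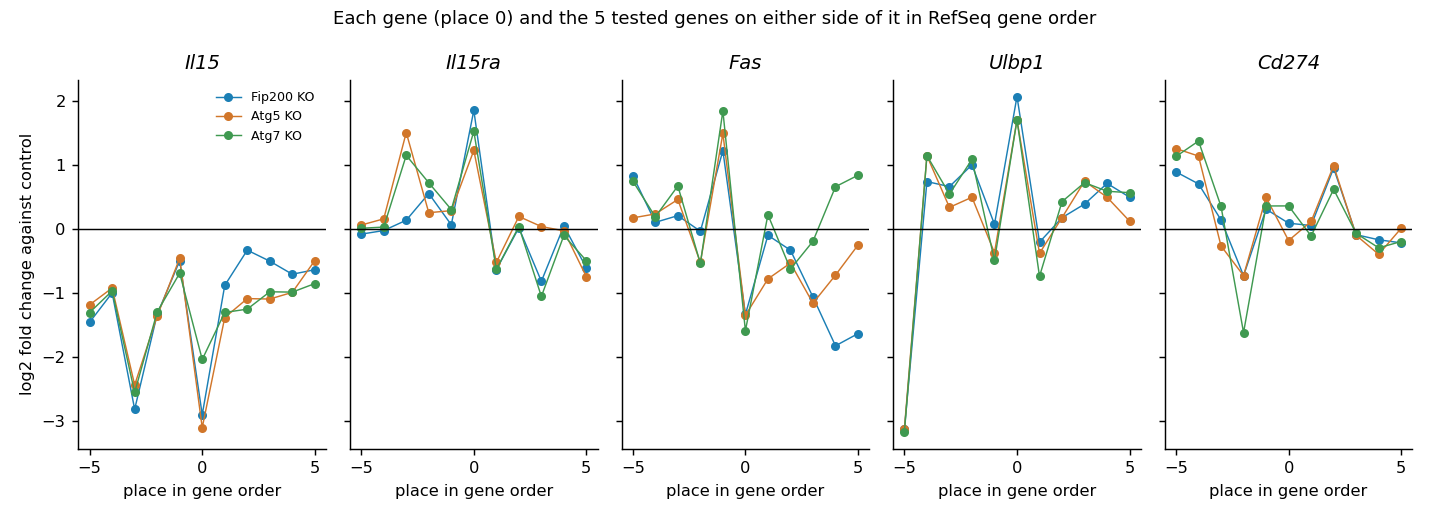
Log2 fold change against control of each gene (place 0) and of the 5 tested genes on either side in RefSeq order, with 1 line per KO. All 10 genes around Il15 lie below 0 in the 3 KO cells, whereas the genes around Il15ra, Fas, Ulbp1 and Cd274 lie on both sides of 0.

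The bases before the transcription start are shown for Fas and Ulbp1, which moved in opposite directions, to set what these promoters share and do not share beside the values. RefSeq windows (GRCm38.p6) were at hand for 4 of the 5 genes, and Il15 had no entry. In the 250 bases before the start, both strands were searched for AP-1 (TGANTCA), ATF/CRE (TGACGT), GAS (TTCNNNGAA), E2F (TTTNNCGC), the E-box (CACGTG), the GC box (GGGCGG), the CCAAT box (CCAAT), the core of the interferon-stimulated response element, NF-kB and the p53 half-site. Capitals mark the matches. The Fas window lies at chr19:34290409-34290658 on the plus strand and the Ulbp1 window at chr10:7473478-7473727 on the minus strand.
Fas: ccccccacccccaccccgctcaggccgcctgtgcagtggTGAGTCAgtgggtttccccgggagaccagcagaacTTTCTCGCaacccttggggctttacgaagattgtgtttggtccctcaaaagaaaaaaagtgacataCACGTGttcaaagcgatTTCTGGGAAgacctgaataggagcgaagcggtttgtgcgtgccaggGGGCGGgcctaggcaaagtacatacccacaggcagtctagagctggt
Ulbp1: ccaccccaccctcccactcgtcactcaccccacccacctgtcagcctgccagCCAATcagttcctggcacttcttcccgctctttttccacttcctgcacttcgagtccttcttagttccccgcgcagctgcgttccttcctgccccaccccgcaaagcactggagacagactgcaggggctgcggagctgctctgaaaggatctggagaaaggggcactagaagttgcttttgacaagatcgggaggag

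Fas held matches to 5 of the motifs: AP-1 beginning 211 bases before the start, E2F at 176, the E-box at 110, GAS at 93 and the GC box at 47. The Ulbp1 window held the CCAAT box, beginning 198 bases before the start, and no other motif searched. Of 32526 promoter windows of this length, 6.73% held AP-1, 4.31% E2F, 6.04% the E-box, 7.04% GAS, 33.0% the GC box and 33.8% the CCAAT box. Il15ra has a pair of windows, of which the first held none of the motifs and the second an AP-1 match, beginning 30 bases before its start and shown with 10 bases on each side (chr2:11705672-11705698, plus strand).
Il15ra: gtggggatgcTGAGTCAcagatctgtc

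The AP-1 match reads the same in Fas and Il15ra, the first of which was lower and the second higher in KO cells. Cd274 held the GC box, beginning 31 bases before its start. A match is a stretch of letters and does not show that a factor binds there. Of the AP-1 genes, Jun was not called (-0.27, -0.39 and -0.28), nor was Fos (-1.90, -0.62 and -0.85), and Junb is given above.

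The genes whose profile over the 12 libraries was most like that of each of the 5 were ranked by Pearson's r on log2 of RPKM plus 0.5, among 10496 or 10497 genes with at least 2 RPKM in 3 libraries. These r describe libraries that fall into control and KO cells, and share that gap, so they are given with no p. For Il15 the highest were Bcap31 (0.965), Sh3kbp1 (0.956), Acot9 (0.938), Unc13a (0.933) and Thbd (0.931), and the lowest Itpr1 (-0.965) and Ccdc94 (-0.953). Bcap31, Sh3kbp1 and Acot9 lie on chromosome X, which had the second lowest median of the 20 chromosomes in each KO. Thbd encodes thrombomodulin, an endothelial surface protein, and went from 163.4 to 273.7 RPKM in control to 27.5 to 61.4 RPKM in KO libraries.

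Il15ra was most like Tmem55a (0.956), Slc30a1 (0.944), Cnbp (0.943), Bmp6 (0.942) and Lyplal1 (0.937), and most unlike Gab1 (-0.958) and Lamp1 (-0.952), both on chromosome 8. Fas was most like Foxq1 (0.967), C1s1 (0.959), Rffl (0.95), Vip (0.944) and Npy (0.939), with Rpsa (-0.959) and Sncaip (-0.934) at the other end. Npy, a neuropeptide gene, went from 11.8 to 26.4 RPKM in control to at most 0.775 RPKM in KO libraries. Ulbp1 was most like Tex9 (0.974), Usp46 (0.959), Zw10 (0.94), Hmcn1 (0.93) and Xrcc2 (0.923), and most unlike Anapc10 (-0.968) and Mme (-0.965). The r of Cd274 were lower, with Hars (0.894), Psmd2 (0.865), Top2b (0.865), 8030462N17Rik (0.849) and Pi4ka (0.834) at the top and Zfp335 (-0.877) and Mmp14 (-0.872) at the bottom.

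Among the 5 genes themselves, r over the 12 libraries was 0.781 for Il15 with Fas and 0.771 for Il15ra with Ulbp1, and between -0.892 and -0.730 for the 4 pairs across these, which the choice of genes fixes. Over the 9 KO libraries alone, the 3 pairs of Fas with Il15, Il15ra and Ulbp1 had the opposite sign of the value over 12, at -0.864, 0.520 and 0.557. Il15 and Cd274 gave 0.717 over the 9 KO libraries and 0.162 over all 12. Atg7 KO replicate 2, with the highest Il15, the lowest Fas and the highest Cd274 of the KO libraries, is among these 9, and Fas rests on 6 to 21 reads in each of them.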

How the data were processed

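RNA of 12 libraries of 562 cells was made with a directional kit and sequenced. Per the methods of the study, the authors aligned trimmed reads with TopHat2, counted them on known transcripts and tested them with edgeR. Versions, genome build and annotation are not given in the sources used here. The deposited RPKM values, made by the authors per gene and library with no further scaling, stand in 3 tables that share the control libraries. The tables also hold a signal that the authors made, the group mean of reads divided by size factors, which served here only to fix the scale of recovered reads. Their fold changes, log2 fold changes and p-values were not used. Whole reads were recovered from the RPKM values for 14851 of 14851 genes, 20 of them without reads, within 0.0001 of a whole number, and total 17266926 to 23629730 per library. For 19 genes a common factor was fixed by the deposited means. A count test was not the main test because the unit is RPKM.

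Genes that reached an RPKM of 0.5 in 3 of the compared libraries were tested with limma 3.58.1 (R 4.3.3) on log2 of RPKM plus 0.5 with a trend, each KO with control in 6 libraries and KO cells with one another in a fit of 12, with Benjamini-Hochberg adjustment over all tested genes. Calls needed an adjusted p up to 0.1 and a log2 fold change of 1 or more in size. The tests were tested on simulated data with known changes. Intervals between KO cells are 95% intervals of limma. No library was a duplicate of another, the lowest chi-square of a replicate pair being 8.19 per degree of freedom. Alternatives were pseudocounts of 0.1 and 1, no filter or a filter at RPKM 1, median-of-ratios scaling, the choice of libraries in the fit, the library-name prefix or the replicate number as a term, limma voom on recovered reads, and leaving out each library. The 5 genes and all lists were chosen with earlier results of these data known. Genes named besides them are the targeted genes, list genes called in at least 1 KO, their receptors and ligands, and for each of the 5 genes the 5 highest and 2 lowest by Pearson's r. Others named, namely uncalled list genes, neighbors and promoters, were chosen after their values were seen. The scripts ran under Python 3.11.15 with pandas 2.3.3, numpy 2.4.6, matplotlib 3.10.9 and scipy 1.17.1.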

Additional observations from a re-analysis of the deposited data

How the results depend on the processing

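Il15 and Fas were lower and Il15ra and Ulbp1 higher than control in each KO under every alternative that gave a value. For these genes no KO library overlapped a control library. Leaving out a library or changing the pseudocount or the filter therefore could not turn these signs. These contrasts also chose the genes, so nothing is read from the signs staying the same. Fas could not be fitted in Atg7 KO cells without any one control library, or between KO cells with only the 6 libraries compared, because it then missed the filter. A term for the prefix of the library names gave 47, 663 and 38 calls in Fip200, Atg5 and Atg7 KO cells against control, instead of 234, 1331 and 1191, and 1, 2 and 1 for Atg5 against Fip200, Atg7 against Fip200 and Atg7 against Atg5 KO cells instead of 0. Summed over the 3 KO cells and with the chosen genes counted, it left 2 calls in the IL-15 list (10 before) and 1 among death receptors (8). Of the other lists it left 0 among other NK ligands (1), 0 among checkpoint ligands (5) and 1 among transcription factors (3). Between KO cells it turned the sign of Cd274 for Atg7 against Fip200 KO (-0.32), and of Il15ra (-0.29) and Ulbp1 (-0.13) for Atg7 against Atg5 KO cells. The cause was not tested.

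Fip200 KO calls were 146 without a filter and 608 with all 12 libraries in 1 fit. With only the 6 libraries compared, Atg7 KO cells gave 1 call against Fip200 KO and 1 against Atg5 KO cells. Other NK ligands gave 0 with a pseudocount of 1 and with 12 libraries in 1 fit. Checkpoint ligands gave 3 with a pseudocount of 1, 2 without a filter and 3 with a filter at RPKM 1. Costimulatory genes gave 1 with a pseudocount of 1, 0 with a filter at RPKM 1 and 4 with voom, against 2. Transcription factors gave 6 with 12 libraries in 1 fit.

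Replicate numbers did not pair the libraries, since same-numbered libraries deviated together with r of -0.217 to 0.0789. With the replicate block, 93 genes were called in Fip200, 1322 in Atg5 and 1071 in Atg7 KO cells, and 3 checkpoint ligands.

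Leaving out each library in turn gave 0 to 598 calls in Fip200 KO, 985 to 1502 in Atg5 KO and 576 to 1514 in Atg7 KO cells. Fip200 KO calls were 0 without control replicate 2 or 3, 41 without Fip200 KO replicate 2, 89 without control replicate 1, 143 without Fip200 KO replicate 1 and 598 without Fip200 KO replicate 3. Between KO cells the calls ranged over 0 to 300, 0 to 402 and 0 to 1. With the chosen genes counted, list calls ranged over 3 to 15 for the IL-15 system, 4 to 9 for death receptors and 2 to 3 for NKG2D ligands. They ranged over 0 to 2 for other NK ligands, 0 to 6 for checkpoint ligands, 0 to 3 for costimulatory genes and 0 to 7 for transcription factors. Signs of some differences between KO cells turned, with a range of -0.0956 to 0.0491 for Fas in Atg5 against Fip200 KO cells, -0.658 to 0.0210 for Il15ra in Atg7 against Fip200 KO cells, and -0.0317 to 0.594 for Il15ra and -0.123 to 0.107 for Ulbp1 in Atg7 against Atg5 KO cells. Depth limits Fas most, with 6 to 21 reads per KO library.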
